A study of Mus musculus with 18 samples.

Results

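Fgf5, Otx2, Pou3f1, Sox3, Lef1, Zic2, Zic5 and Foxd3, a group of genes used to recognise the formative and primed epiblast, were followed singly through the first day of induction of mouse pluripotent cells into epiblast-like cells (EpiLCs). The members were taken as the genes whose symbol in the count table equals one of these names, and all 8 were found among the 45706 genes of the table. RNA came from induced pluripotent stem cells of 3 lines, wt and the 2 Hmga2 KO lines here called KO#1 and KO#2. Every line was sampled at 0 h and at 24 h as 3 biological replicates, which makes 6 groups and a total of 18 libraries. Before induction, at 0 h, all lines grew over inactivated fibroblast feeders with serum, leukaemia inhibitory factor and inhibitors of MEK and GSK3. At 24 h they had been plated on a coating of basement membrane matrix, free of feeders and serum, in medium with Activin A and bFGF. Each line is 1 clone, so that clone and genotype cannot be told apart within a line, and the change of medium and the loss of feeders came together with the 24 h of induction. The comparisons asked how each marker moved as the cells left the naive state, and whether its level differed between wt and Hmga2 KO cells.

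Mouse pluripotent cells pass from a naive state, like that of the epiblast before implantation, through a formative state to a primed state, like that of the epiblast after implantation. In culture, Activin A and FGF drive this transition once the inhibitors that hold the naive state are withdrawn. Fgf5, a secreted fibroblast growth factor, is the classical marker of the epiblast after implantation. Otx2 is a homeodomain factor that brings Pou5f1 to new enhancers during the transition, Pou3f1 is a POU factor of the epiblast and the early nervous system, and Sox3 is a close relative of Sox2. Lef1 carries the transcriptional response to beta-catenin in the Wnt pathway. Zic2 and Zic5 encode zinc finger factors, and Foxd3 encodes a forkhead factor that the epiblast needs for its maintenance. Zic2 and Foxd3 are also transcribed in undifferentiated embryonic stem cells.

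Total counts ranged from 3466436 to 23872837 per library, and 3 counts, taken as the smallest level that a library could show, lay between 0.116 and 0.984 CPM. CPM relate each count to the total of its library, corrected by the TMM factor of edgeR, and such floors cover counting error only. The wt library 1 at 0 h was the shallowest, and 33.3% of its counts fell on Gm26917. Protein-coding genes held 41.6 to 66.7% of the counts in wt libraries, 41.3 to 77.4% in KO#1 and 76.3 to 84.7% in libraries labelled KO#2. The 6 pluripotency markers Pou5f1, Sox2, Nanog, Sall4, Lin28a and Dppa5a were detected in every library, with a summed level from 2346 to 5366 CPM. At 24 h the libraries labelled KO#2 had the lowest sums, at 2346 to 2718 CPM, all below the 3859 to 4200 CPM of wt cells. Hmga2 was at 13.3 to 22.4 CPM in wt cells at 0 h, 1.75 to 10.2 in KO#1 and 1.84 to 8.25 in libraries labelled KO#2. At 24 h Hmga2 was at 5.51 to 5.93 CPM in wt cells, 0.871 to 3.67 in KO#1 and 3.02 to 10.5 in libraries labelled KO#2, which overlapped wt. Its log2 fold change over the 24 h was -1.61 in wt cells (SE 0.62, edgeR adjusted p = 0.0362), and neither KO clone had a called change. The log2 fold change of Hmga2 against wt was -1.71 in KO#1 (edgeR adjusted p = 0.124) and -1.90 in libraries labelled KO#2 (edgeR adjusted p = 0.023) at 0 h, and -1.36 (edgeR adjusted p = 0.22) and -0.039 (edgeR adjusted p = 0.966) at 24 h. The labels do not say which part of the gene was removed, so RNA from the rest of it may still be counted, which was not tested. The 8 fibroblast markers summed to 110.0 to 898 CPM at 0 h and to 19.0 to 219 CPM at 24 h, with Dcn at 0 counts in 4 libraries of 0 h. In each KO group the library with the highest fibroblast sum also had the highest Hmga2. These sums were 514 (KO#1) and 898 CPM (KO#2) at 0 h, and 51.8 and 219 CPM at 24 h. In wt cells Hmga2 did not follow the sum, with 22.4 CPM at 0 h in the library of the lowest sum, 110.0 CPM. The part of feeder RNA in the Hmga2 values was not tested.

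The 8 genes are protein-coding and lie on 5 chromosomes of GRCm38 in the GENCODE annotation. Fgf5 (ENSMUSG00000029337) is at chr5:98254184-98277030 on the plus strand and Otx2 (ENSMUSG00000021848) at chr14:48657677-48673819 on the minus strand. Pou3f1 (ENSMUSG00000090125), a gene of 1 exon, is at chr4:124656807-124660655, and Sox3 (ENSMUSG00000045179), also of 1 exon, is at chrX:60891366-60893430. Lef1 (ENSMUSG00000027985) is at chr3:131110471-131224356. Zic2 (ENSMUSG00000061524) at chr14:122475435-122479852 and Zic5 (ENSMUSG00000041703) at chr14:122456795-122465677 are neighbours transcribed away from each other, and Foxd3 (ENSMUSG00000067261) is at chr4:99656299-99658622. Otx2, Pou3f1, Lef1 and Foxd3 share annotated exon bases with another gene, and whether strand was used in the counting is not given in the sources used here. The partners matched in the count table were low: Otx2os1 had at most 2 counts in a library, the antisense gene at Pou3f1 (Gm27247) at most 6, the antisense gene at the start of Lef1 (RP24-176P19.3) at most 36, and the microRNA gene within Foxd3 (Gm23366) 0.

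The RefSeq table of GRCm38.p6 holds windows from 250 bases before to 50 bases after the start for Fgf5, Otx2, Lef1, Zic5 and Foxd3, and none was matched to Pou3f1, Sox3 or Zic2. One window of each is shown, because the first 3 genes rose at 24 h in every line while Foxd3 passed the test in none, and Zic5 only in libraries labelled KO#2. Capitals mark the letters of a searched motif or of its reverse complement.
Fgf5, chr5:98253934-98254233, plus strand: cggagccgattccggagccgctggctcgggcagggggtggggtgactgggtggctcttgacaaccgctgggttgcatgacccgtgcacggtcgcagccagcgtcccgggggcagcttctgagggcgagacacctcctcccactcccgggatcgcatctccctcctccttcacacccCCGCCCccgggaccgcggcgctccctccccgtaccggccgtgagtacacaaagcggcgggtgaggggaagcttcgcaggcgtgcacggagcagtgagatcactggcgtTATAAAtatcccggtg
Otx2, chr14:48667595-48667894, minus strand: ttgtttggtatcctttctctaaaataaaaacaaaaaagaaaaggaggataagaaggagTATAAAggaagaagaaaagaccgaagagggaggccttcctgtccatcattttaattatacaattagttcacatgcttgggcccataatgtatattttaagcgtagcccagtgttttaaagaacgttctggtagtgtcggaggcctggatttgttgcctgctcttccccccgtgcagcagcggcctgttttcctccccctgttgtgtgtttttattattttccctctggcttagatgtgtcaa
Lef1, chr3:131110047-131110346, plus strand: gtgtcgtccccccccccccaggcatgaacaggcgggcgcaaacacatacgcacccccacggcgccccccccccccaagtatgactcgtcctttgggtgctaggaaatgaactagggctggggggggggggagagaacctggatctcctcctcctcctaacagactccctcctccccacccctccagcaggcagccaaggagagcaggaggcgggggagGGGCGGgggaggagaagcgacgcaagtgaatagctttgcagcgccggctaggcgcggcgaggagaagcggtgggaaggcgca
Zic5, chr14:122465609-122465908, minus strand: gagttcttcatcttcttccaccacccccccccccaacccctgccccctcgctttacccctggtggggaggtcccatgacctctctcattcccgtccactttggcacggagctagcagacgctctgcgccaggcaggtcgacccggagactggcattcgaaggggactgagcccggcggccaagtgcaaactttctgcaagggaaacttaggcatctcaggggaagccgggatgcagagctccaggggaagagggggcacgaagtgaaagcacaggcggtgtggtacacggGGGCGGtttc
Foxd3, chr4:99656049-99656348, plus strand: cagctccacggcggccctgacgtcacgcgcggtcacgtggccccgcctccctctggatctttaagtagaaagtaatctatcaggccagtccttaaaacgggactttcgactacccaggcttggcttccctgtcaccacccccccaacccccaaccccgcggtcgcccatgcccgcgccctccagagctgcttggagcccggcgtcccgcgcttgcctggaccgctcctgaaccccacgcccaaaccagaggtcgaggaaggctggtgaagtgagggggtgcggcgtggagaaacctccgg

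The motifs searched on both strands were TATAAA (the TATA box), GGGCGG (the GC box), CCAAT (the CCAAT box), GGATTA (bound by Otx2), ATCAAAG (bound by Lef1 and its relatives), ATGCAAAT (bound by POU factors) and AATATT (an AT-rich word, the same on both strands). No motif contains another. The Fgf5 window held GGGCGG on the minus strand at position -74 and TATAAA at position 35, counted with the first transcribed base as 1. The windows of Lef1 and Zic5 shown here each held GGGCGG, at positions -32 and 41, that of Otx2 held TATAAA at position -192, and that of Foxd3 held none of the 7. Of all 32851 windows in the table, 35.7% held GGGCGG, 13.6% TATAAA, 37.4% CCAAT, 7.06% GGATTA, 3.73% ATCAAAG, 1.74% ATGCAAAT and 6.81% AATATT. The RefSeq table lists 3 more starts each for Otx2 and Lef1, where CCAAT and GGATTA were each found in 1 window of Otx2, GGGCGG in 2 windows of Lef1 and TATAAA in 1. The Fgf5 window was 68.3% G and C with 29 CG pairs, that of Foxd3 65.7% with 25, Lef1 67.3% with 18 and Zic5 62.7% with 15. The Otx2 window was poorer, at 41.7% with 6 CG pairs, against medians of 52.7% and 7 over all windows. A match gives letters only.

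Fgf5, Otx2, Pou3f1, Sox3 and Lef1 rose in wt cells, in KO#1 and in libraries labelled KO#2 between 0 h and 24 h, and their replicates at the 2 times did not overlap in any line. The fitted rise was largest for Fgf5 in all 3 lines, from a few counts to 3.16 CPM or more, and this rank rests on 7, 4 and 12 summed counts at 0 h. Zic2 and Foxd3 passed the test in no line. Zic5 passed it in libraries labelled KO#2 alone, where its replicates overlapped. In wt cells 5 of the 8 members were called, all higher at 24 h, while 50.7% of the 16619 genes tested were called and 26% were called higher. In KO#1 5 of 8 were called, all higher, against 40.8% of all genes and 20.1% called higher. In the libraries labelled KO#2 6 of 8 were called, all higher, against 26% of all genes and 12.7% called higher. The median log2 fold change of the 8 members in wt cells was 3.46, that in KO#1 2.32 and that in libraries labelled KO#2 2.45, beside 0.030, 0.0037 and -0.028 over all genes tested. Other marker lists moved too. Of 8 fibroblast markers 6 were called lower and 1 higher in wt cells and in KO#1, and 3 lower in libraries labelled KO#2. Of 6 primitive endoderm markers 2 were called lower in wt cells and in KO#1, and 3 higher and 1 lower in libraries labelled KO#2. Of 5 neuroectoderm markers tested 1 was called higher and 2 lower in wt cells and 2 lower in KO#1. The part of these lists was not tested. In such bulk libraries, fewer cells of a type and less RNA per cell cannot be told apart.

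**Figure D1:**
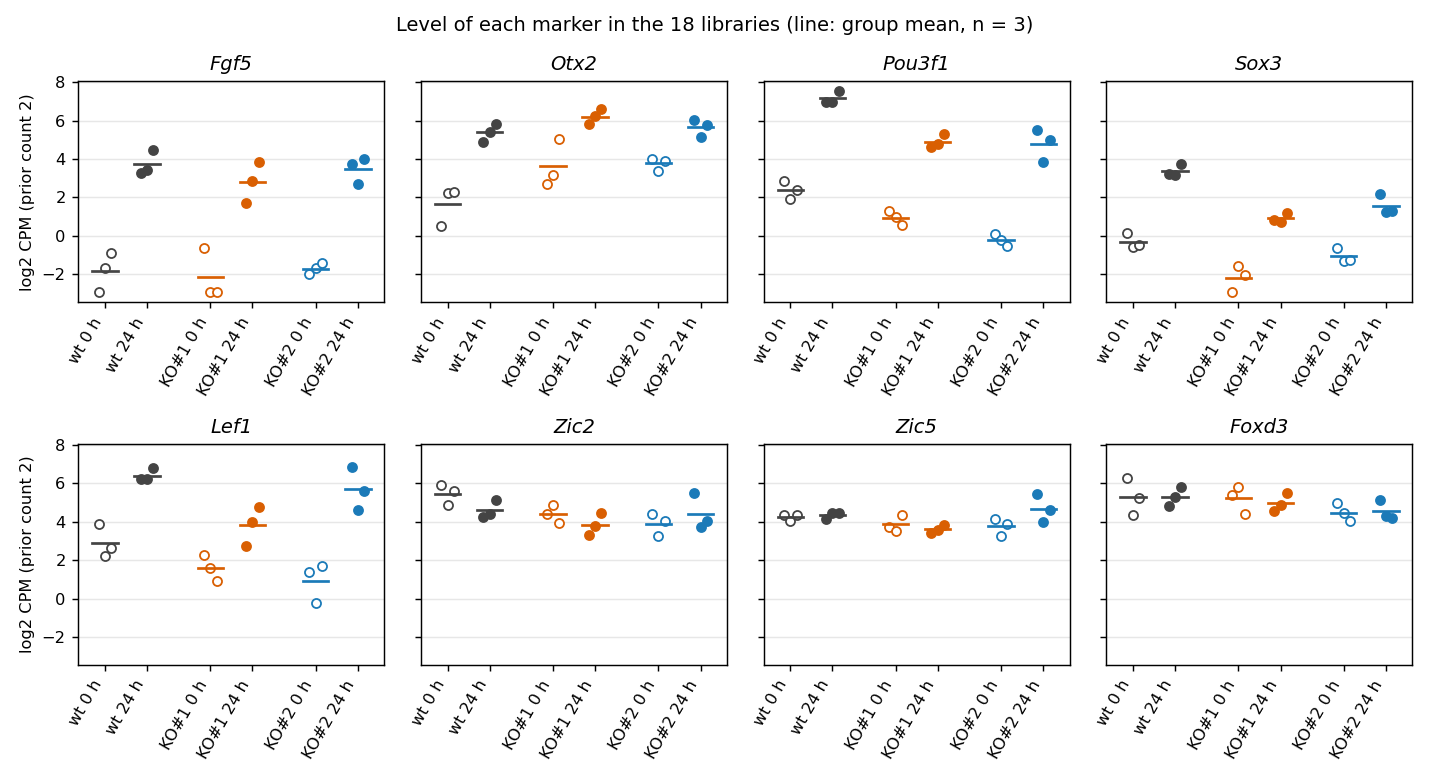
Level of each of the 8 markers in every library, as log2 CPM with a prior count of 2, for wt, KO#1 and KO#2 at 0 h (open points) and 24 h (filled points); the short line is the mean of 3 libraries. Fgf5, Otx2, Pou3f1, Sox3 and Lef1 stand higher at 24 h in each line, while Zic2, Zic5 and Foxd3 overlap between the times.

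Fgf5 was almost undetected at 0 h. The wt libraries 1, 2 and 3 held 0, 2 and 5 counts (0, 0.184 and 0.417 CPM), those of KO#1 4, 0 and 0 counts, and those labelled KO#2 3, 4 and 5 counts. At 24 h the gene was at 9.50, 10.7 and 22.2 CPM in wt cells, at 3.16, 7.15 and 14.4 CPM in KO#1, and at 13.0, 6.27 and 16.1 CPM in libraries labelled KO#2. Every library of 24 h thus stood above every library of 0 h, and the 3 lines overlapped at each time. With the counts of a group added up, the ratio of 24 h to 0 h was 53.8 in wt cells (95% exact binomial interval 26.0 to 134), 64.5 in KO#1 (25.0 to 238) and 64.9 in libraries labelled KO#2 (36.9 to 126), and these intervals cover counting error only. All 4 counts of KO#1 at 0 h lay in library 1. Without it the group was at 0 counts, so that the log2 fold change of 10.0 fitted then has no measured start. In the fit over all libraries the log2 fold change was 5.71 in wt cells (SE 0.81, edgeR adjusted p = 3.0e-05), 5.76 in KO#1 (SE 0.88, edgeR adjusted p = 0.000111) and 5.98 in libraries labelled KO#2 (SE 0.74, edgeR adjusted p = 2.38e-05). No fold between lines is given at 0 h, where the depth could not show one. Against wt at 24 h the log2 fold change was -0.78 in KO#1 (95% interval -1.92 to 0.37) and -0.26 in libraries labelled KO#2 (-1.39 to 0.87), and neither was called.

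Otx2 differed from the other rising members in its starting level. At 0 h it was at 1.31, 4.59 and 4.75 CPM in wt cells, at 6.26, 8.77 and 32.7 CPM in KO#1, and at 16.1, 10.3 and 14.8 CPM in libraries labelled KO#2, so that all 6 KO libraries stood above the 3 of wt. The log2 fold change against wt at 0 h was 2.07 in KO#1 (SE 0.52, edgeR adjusted p = 0.0207) and 1.82 in libraries labelled KO#2 (SE 0.51, edgeR adjusted p = 0.0115). The KO#1 value rested in part on library 3, in which the 8 neuroectoderm markers also summed to 195 CPM, beside 38.6 and 57.0 in the other two. Without that library it was 0.92 (edgeR adjusted p = 0.266), it also lost its call without any 1 of the 3 wt libraries (edgeR adjusted p from 0.0541 to 0.0695) and with only the 2 groups in the fit (edgeR adjusted p = 0.122), and the part of the neuroectoderm markers in the result was not tested. At 24 h Otx2 was at 29.9, 41.6 and 57.2 CPM in wt cells, 55.7, 73.9 and 96.4 in KO#1, and 64.3, 35.3 and 55.1 in libraries labelled KO#2. The lines overlapped there, and the differences from wt, 0.81 in KO#1 (95% interval -0.16 to 1.78) and 0.26 in libraries labelled KO#2 (-0.70 to 1.23), were not called. The rise from 0 h to 24 h was 3.46 on the log2 scale in wt cells (SE 0.53, edgeR adjusted p = 6.41e-05), 2.20 in KO#1 (SE 0.48, edgeR adjusted p = 0.0019) and 1.91 in libraries labelled KO#2 (SE 0.48, edgeR adjusted p = 0.00677). Without KO#1 library 3 of 0 h the rise of Otx2 in KO#1 was 3.34 (edgeR adjusted p = 3.6e-05).

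Pou3f1 was lower in both KO groups than in wt cells at both times, and it rose in all 3 lines. At 0 h wt cells had 7.22, 3.67 and 5.17 CPM, KO#1 had 2.35, 1.88 and 1.34, and the libraries labelled KO#2 had 0.935, 0.720 and 0.576, with no overlap between any of the 3. At 24 h wt cells had 126, 125 and 185 CPM, KO#1 had 24.6, 27.6 and 39.3, and the libraries labelled KO#2 had 45.6, 14.0 and 31.1, so that the wt libraries stood above all 6 KO libraries and the KO groups overlapped. Against wt at 24 h the log2 fold change was -2.25 in KO#1 (SE 0.35, edgeR adjusted p = 0.000356) and -2.26 in libraries labelled KO#2 (SE 0.35, edgeR adjusted p = 0.000129), which is 0.211 and 0.208 of the wt level. Both calls held in each of the 13 alternative fits that tested the gene. Against wt at 0 h the value was -2.76 in libraries labelled KO#2 (SE 0.43, edgeR adjusted p = 0.000197), also called in 13 of 13. The 0 h value of KO#1, -1.51 (SE 0.43, edgeR adjusted p = 0.0417), was called in only 6 of 13, and without wt library 1 it was -1.30 (edgeR adjusted p = 0.116). The rise was 4.82 on the log2 scale in wt cells (SE 0.41, edgeR adjusted p = 2.28e-07), 4.08 in KO#1 (SE 0.42, edgeR adjusted p = 2.77e-06) and 5.32 in libraries labelled KO#2 (SE 0.43, edgeR adjusted p = 4.46e-07).

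Sox3 was also highest in wt cells at 24 h, at a lower level than Pou3f1. It was at 9.27, 8.82 and 13.3 CPM in wt cells, 1.62, 1.53 and 2.18 in KO#1 and 4.39, 2.24 and 2.30 in libraries labelled KO#2, and these 3 sets did not overlap. The log2 fold change against wt was -2.54 in KO#1 (SE 0.39, edgeR adjusted p = 0.000303) and -1.82 in libraries labelled KO#2 (SE 0.37, edgeR adjusted p = 0.00114). With library totals in place of TMM factors the second value became -0.80 and was no longer called (edgeR adjusted p = 0.131). At 0 h the gene was near the floor, with 3, 6 and 7 counts in wt cells, 0, 1 and 2 in KO#1 and 13, 6 and 6 in the deeper libraries labelled KO#2. Over the summed counts, wt stood 6.09 times above KO#1 (95% exact binomial interval 1.74 to 32.6, counting error only) and 1.67 times above the libraries labelled KO#2 (0.834 to 3.26). The fitted difference from wt at 0 h was called in KO#1 (edgeR adjusted p = 0.0357; 5 of 12 alternative fits called it, and without KO#1 library 3 the edgeR adjusted p was 0.126) and not in libraries labelled KO#2 (edgeR adjusted p = 0.222). The summed counts at 24 h were 17.3 times those at 0 h in wt cells (10.5 to 30.5), 18 times in KO#1 (5.92 to 89.3) and 7.77 times in libraries labelled KO#2 (5.11 to 12.3). The rise was called in each line, with edgeR adjusted p of 4.45e-06, 0.000113 and 8.87e-05.

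Lef1 rose in all 3 lines but reached different levels. In wt cells it went from 14.4, 4.50 and 6.01 CPM at 0 h to 73.6, 73.1 and 109.8 at 24 h, a log2 fold change of 3.47 (SE 0.65, edgeR adjusted p = 0.000335). In KO#1 it went from 4.69, 2.92 and 1.75 CPM to 6.47, 15.4 and 27.2, a log2 fold change of 2.44 (SE 0.66, edgeR adjusted p = 0.00723). The libraries labelled KO#2 went from 2.44, 0.720 and 3.07 CPM to 116, 24.1 and 48.6, a log2 fold change of 4.92 (SE 0.68, edgeR adjusted p = 6.7e-05). All 3 KO#1 libraries of 24 h stood below those of wt, and KO#1 was lower by a log2 fold change of -2.38 (SE 0.60, edgeR adjusted p = 0.0144). That call was lost without wt library 3 (-2.11, edgeR adjusted p = 0.0502), without KO#1 library 1 (-1.97, edgeR adjusted p = 0.0656) and without KO#1 library 2 (-2.32, edgeR adjusted p = 0.0578). The libraries labelled KO#2 overlapped both other lines at 24 h, and their difference from wt was -0.44 (95% interval -1.63 to 0.74). At 0 h they were lower than wt, by a log2 fold change of -1.89 (SE 0.65, edgeR adjusted p = 0.0303), but without the shallow wt library 1 the value was -1.37 (edgeR adjusted p = 0.126), without KO#2 library 1 it was -2.03 (edgeR adjusted p = 0.0572), without KO#2 library 2 it was -1.48 (edgeR adjusted p = 0.104) and with library totals alone it was -1.39 (edgeR adjusted p = 0.0908). An annotated transcript within an intron of Lef1 on the same strand (RP24-176P19.6) had 36 to 165 counts in libraries labelled KO#2 at 24 h and at most 25 in any other library.

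**Figure D2:**
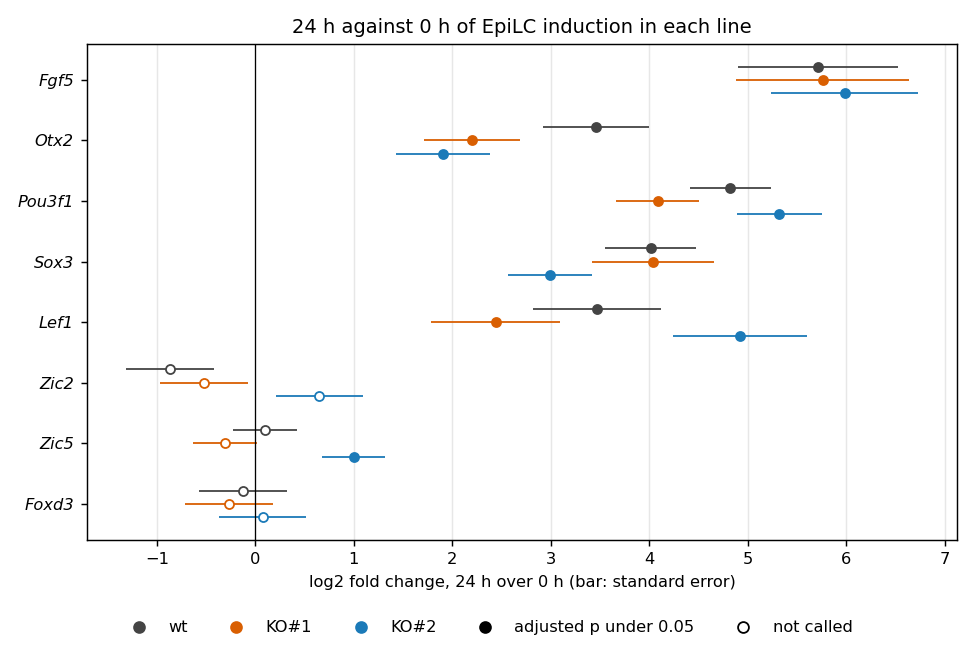
Log2 fold change of each marker from 0 h to 24 h in wt, KO#1 and KO#2, with its standard error as a bar (edgeR, 3 libraries per group); filled points passed an adjusted p of 0.05, and the values of Fgf5 and Sox3 rest on few counts at 0 h. Fgf5, Otx2, Pou3f1, Sox3 and Lef1 lie to the right in all 3 lines, between 1.91 and 5.98, and Zic2, Zic5 and Foxd3 lie between -0.87 and 1.00.

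Zic2 was present in undifferentiated cells and did not rise with the 5 genes above. Its 0 h levels were 60.7, 28.6 and 47.9 CPM in wt cells, 21, 29.4 and 14.9 in KO#1 and 20.8, 9.53 and 16.5 in libraries labelled KO#2, of which the last lay wholly below wt. At 24 h the levels were 18.8, 21.2 and 34.6 CPM in wt cells, 9.63, 13.6 and 21.8 in KO#1 and 44.1, 13.0 and 16.6 in libraries labelled KO#2. The 24 h change was -0.87 in wt cells (95% interval -1.80 to 0.067), -0.52 in KO#1 (-1.46 to 0.42) and 0.65 in libraries labelled KO#2 (-0.27 to 1.57), none of them called. The change in wt cells was called lower in 3 of 14 alternative fits, those with library totals (-1.42, edgeR adjusted p = 0.0196), with no filter and with only the 2 groups, and that in KO#1 in 1 of 14, with library totals (-1.23, edgeR adjusted p = 0.0415). Against wt at 0 h Zic2 was lower by -1.54 on the log2 scale in libraries labelled KO#2 (SE 0.45, edgeR adjusted p = 0.0137; without KO#2 library 2, -1.28 and edgeR adjusted p = 0.0597; with library totals alone, -1.04 and edgeR adjusted p = 0.097), and its difference in KO#1 was -1.07 (edgeR adjusted p = 0.182). At 24 h neither difference from wt was called, -0.73 in KO#1 and -0.022 in libraries labelled KO#2.

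Zic5, the neighbour of Zic2, had an even level in wt cells, at 20.0, 16.4 and 20.5 CPM at 0 h and 17.5, 21.6 and 21.8 CPM at 24 h. KO#1 had 13.2, 11.5 and 19.9 CPM at 0 h and 10.7, 11.8 and 13.9 CPM at 24 h, the latter all below wt but without a call (-0.74, SE 0.32, edgeR adjusted p = 0.174). The libraries labelled KO#2 went from 17.6, 9.26 and 14.8 CPM to 43.6, 15.8 and 24.1 CPM. Their log2 fold change of 1.00 (SE 0.32, edgeR adjusted p = 0.0277) was called although the replicates overlapped. It was 0.52 without library 1 of 24 h (edgeR adjusted p = 0.207), 0.78 without library 2 of 0 h (edgeR adjusted p = 0.113) and 1.05 without library 3 of 0 h (edgeR adjusted p = 0.0587), and it was also lost with library totals alone and with only the 2 groups in the fit. The changes of wt cells (0.10) and KO#1 (-0.31) were not called, although with library totals that of KO#1 was -1.09 (edgeR adjusted p = 0.026).

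Foxd3 overlapped between all neighbouring groups and was called in none of the 11 comparisons. Its difference from wt in libraries labelled KO#2 was called in 2 of 14 alternative fits at 0 h (lowest edgeR adjusted p = 0.015) and in 1 of 14 at 24 h (edgeR adjusted p = 0.0461). Its levels at 0 h were 77.1, 20.1 and 38.0 CPM in wt cells, 42.0, 56.4 and 21.3 in KO#1 and 31.0, 21.5 and 16.2 in libraries labelled KO#2. At 24 h they were 28.2, 38.8 and 54.9 CPM in wt cells, 23.7, 29.4 and 45.6 in KO#1 and 35.2, 19.3 and 17.9 in libraries labelled KO#2. The spread within a group was wide, from 20.1 to 77.1 CPM in wt cells at 0 h. Between the times its log2 fold change was -0.13 in wt cells (95% interval -1.06 to 0.81), -0.26 in KO#1 (-1.20 to 0.67) and 0.074 in libraries labelled KO#2 (-0.85 to 1.00).

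Ordered by mean log2 CPM, each of the 5 rising members had the 24 h groups in its first 3 places. For Fgf5, Otx2 and Pou3f1 the last of these places did not overlap the highest group of 0 h, nor did it for Sox3, in which no neighbouring groups overlapped at all. Lef1 overlapped at every step, since KO#1 at 24 h (from 6.47 CPM) reached down into wt at 0 h (up to 14.4 CPM). Pou3f1, Sox3, Lef1 and Fgf5 were highest in wt at 24 h, Otx2 in KO#1 at 24 h, Zic2 in wt at 0 h, Zic5 in libraries labelled KO#2 at 24 h and Foxd3 in wt at 24 h. With library totals in place of TMM factors, the libraries labelled KO#2 at 24 h came first for Fgf5, Otx2 and Lef1 and KO#1 at 0 h for Foxd3. With RLE factors wt at 0 h came first for Foxd3, at 5.309 against 5.300 in wt at 24 h. With TMM factors, neighbouring groups of Zic2, Zic5 and Foxd3 overlapped at every step. Compared per length, as mean CPM per kilobase of annotated exons, Foxd3 (19.4) and Zic2 (15.9) were the most abundant of the 8 in wt cells at 0 h and Fgf5 (0.0801) the least. At 24 h Pou3f1 (37.6 CPM per kilobase) was the most abundant in wt cells and Zic5 (4.16) the least. In KO#1 at 24 h Otx2 (17.8 CPM per kilobase) and in libraries labelled KO#2 Otx2 (12.2) took the first place, while Pou3f1 was at 7.92 and 7.85.

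At 0 h the KO clones differed from wt cells at Otx2, which was higher, and at Pou3f1, which was lower, in both. KO#1 had 3 of 8 members called, Otx2 higher and Pou3f1 and Sox3 lower, against 6.67% of all genes called. The libraries labelled KO#2 had 4 of 8 called, Otx2 higher and Pou3f1, Lef1 and Zic2 lower, against 38.1% of all genes. The KO#1 count was 0 with only the 2 groups in the fit and 0 to 2 with a library left out. The KO#2 count was 2 without KO#2 library 2 and 2 with library totals alone. The 2 comparisons share the wt libraries, of which library 1 was the shallowest. Fibroblast markers were also higher at 0 h in libraries labelled KO#2, with 4 of 8 called and a summed level of 331 to 898 CPM, beside 110.0 to 390.0 CPM in wt cells, and 3 of the 6 pluripotency markers were called lower there, with a summed level of 2507 to 3745 CPM beside 3161 to 3863 CPM. Of the 5 neuroectoderm markers tested, 1 was called higher and 2 lower in libraries labelled KO#2, with sums of 36.2 to 40.4 CPM beside 57.3 to 83.3 CPM in wt cells, and 1 higher and 1 lower in KO#1. KO#1 also had 1 of the 6 pluripotency markers called lower. Of the 6 primitive endoderm markers 2 were called higher in libraries labelled KO#2, and of the 2 primitive streak markers tested 1 was called lower. The part of these lists in the members' differences was not tested.

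At 24 h Pou3f1 and Sox3 were lower than in wt cells in both KO clones, and Lef1 in KO#1. KO#1 had 3 of 8 members called, all lower, against 9.86% of all genes called and 3.61% called lower. The libraries labelled KO#2 had 2 of 8 called, both lower, against 37.3% of all genes and 16% called lower. The median log2 fold change of the members was -0.76 in KO#1 and -0.35 in libraries labelled KO#2, beside -0.017 and 0.20 over all genes. With library totals in place of TMM factors, the median over all genes for the libraries labelled KO#2 moved to 1.24. On that scale Pou3f1 was still lower there (-1.26, edgeR adjusted p = 0.0104), but Fgf5, Lef1, Zic2 and Foxd3, none of them called, changed sign, and Otx2 (1.28, edgeR adjusted p = 0.0312) and Zic5 (1.51, edgeR adjusted p = 0.00206) were called higher. In these libraries 6 of the 8 fibroblast markers were called higher than in wt at 24 h, with a summed level of 71.0 to 219 CPM beside 19.0 to 34.6 CPM, and 5 of the 6 primitive endoderm markers were called higher, with a summed level of 145 to 249.9 CPM beside 188 to 311 CPM. Of the 6 pluripotency markers, whose sums are given above, 2 were called higher and 1 lower. Of the 5 neuroectoderm markers tested 2 were called lower in each KO clone, with sums of 54.3 to 71.7 CPM in KO#1 and 30.5 to 53.1 CPM in libraries labelled KO#2 beside 44.6 to 55.7 CPM in wt cells. Of the 2 primitive streak markers tested 1 was called higher in each KO clone, with sums of 6.17 to 12.1 and 8.43 to 12.1 CPM beside 2.10 to 2.23 CPM. In KO#1 2 of the 6 primitive endoderm markers were called higher, at 257 to 483 CPM in sum, 1 fibroblast marker was called higher and 1 lower, and 1 pluripotency marker was called higher. The part of these lists in the members' values was not tested.

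**Figure D3:**
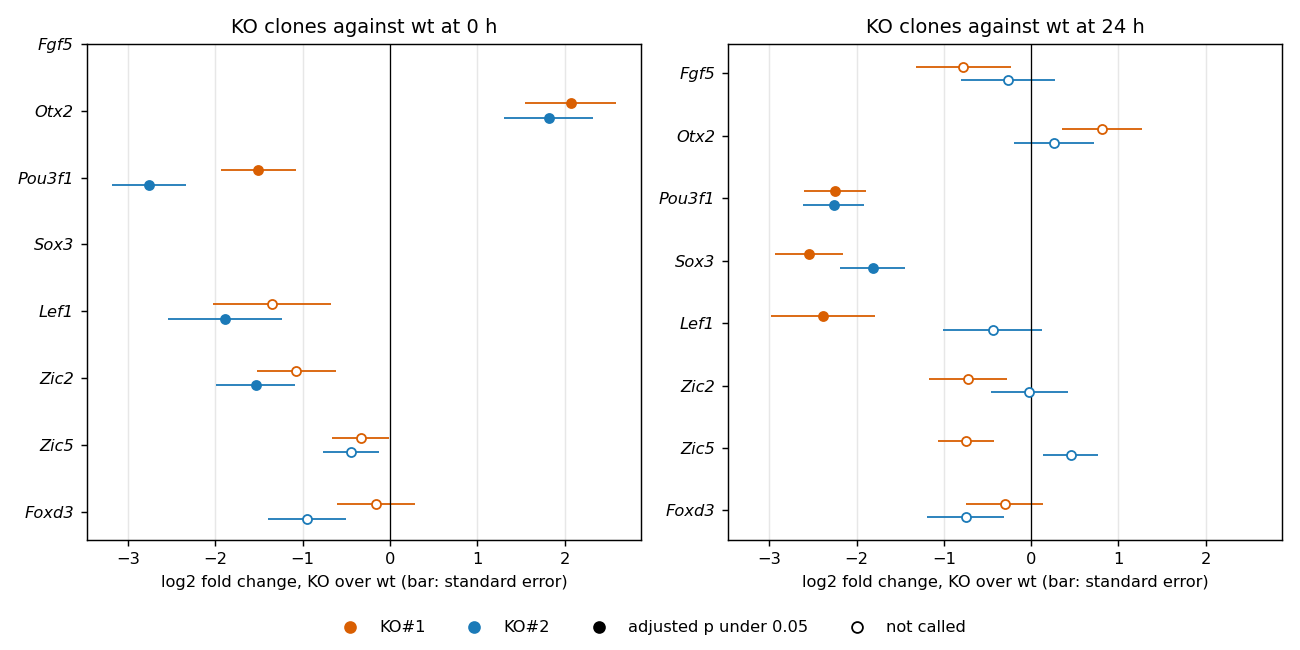
Log2 fold change of each marker in KO#1 and KO#2 against wt at 0 h (left) and 24 h (right), with its standard error as a bar (edgeR, 3 libraries per group); filled points passed an adjusted p of 0.05, and Fgf5 and Sox3 are left out at 0 h because they had few counts there. Pou3f1 lies between -2.76 and -1.51 in all 4 comparisons, and Otx2 lies at 2.07 and 1.82 at 0 h and at 0.81 and 0.26 at 24 h.

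Whether the change from 0 h to 24 h itself differed from that of wt cells was tested for each member, and none passed. By edgeR's quasi-likelihood test 0 of 8 were called for KO#1, with 0 at an unadjusted p under 0.05 and 0 by DESeq2, against 0.391% of all genes. For the libraries labelled KO#2 0 of 8 were called, with 2 at an unadjusted p under 0.05 (Otx2 and Zic2) and 0 by DESeq2, against 1.47% of all genes. The smaller rise of Otx2 from its higher start differed from that of wt by -1.26 in KO#1 (95% interval -2.77 to 0.26, edgeR adjusted p = 0.579) and by -1.55 in libraries labelled KO#2 (-3.05 to -0.051, edgeR adjusted p = 0.186). The KO#1 value of Otx2 rested on library 3 of 0 h, without which it was -0.11 (edgeR adjusted p = 1.0). For Pou3f1 the differences were -0.74 (-1.97 to 0.50) and 0.50 (-0.75 to 1.74), and for Sox3 0.025 (-1.60 to 1.65) and -1.02 (-2.34 to 0.30), in the same order. Lef1 had -1.03 (-2.97 to 0.90) and 1.45 (-0.52 to 3.42), and Fgf5, with few counts at 0 h, 0.048 (-2.46 to 2.56) and 0.27 (-2.04 to 2.58). Zic2 had 0.35 (-0.98 to 1.67) and 1.52 (0.20 to 2.83), Zic5 -0.41 (-1.37 to 0.56) and 0.90 (-0.057 to 1.85), and Foxd3 -0.14 (-1.46 to 1.18) and 0.20 (-1.11 to 1.51). Without the filter on low counts, Otx2, Lef1 and Zic2 were called for the libraries labelled KO#2.

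The KO clones were also compared with each other. At 0 h 0 of 8 members were called by edgeR's quasi-likelihood test, with 2 at an unadjusted p under 0.05 and 1 by DESeq2, against 26.4% of all genes. The 2 were Pou3f1 (-1.25, SE 0.46, edgeR adjusted p = 0.0507), called by DESeq2 with an adjusted p of 0.0257, and Sox3, with 25 counts in libraries labelled KO#2 and 3 in KO#1. At 24 h 2 of 8 were called, both higher in libraries labelled KO#2, against 35.4% of all genes. Lef1 was higher by 1.94 on the log2 scale (SE 0.59, edgeR adjusted p = 0.016), with overlapping replicates, and Zic5 by 1.2 (SE 0.32, edgeR adjusted p = 0.00836), without overlap. Without KO#2 library 1 of 24 h neither was called, at 1.15 for Lef1 (edgeR adjusted p = 0.139) and 0.72 for Zic5 (edgeR adjusted p = 0.0852). In that library the 8 fibroblast markers summed to 219 CPM, beside 71.0 and 122 CPM in its replicates. The part of these markers in the calls was not tested. The call of Lef1 was also lost without KO#1 library 1 (1.51, edgeR adjusted p = 0.07) or library 2 (1.86, edgeR adjusted p = 0.0552).

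Over the 18 libraries, the log2 CPM of Pou3f1 varied most closely with that of Lef1 (Pearson r = 0.930) and Sox3 (0.925) among the members, while Zic2 was nearest to Foxd3 (0.697) and Zic5 to Lef1 (0.622). Otx2 and Zic2 had the lowest value, -0.45. Of 10715 other genes with an average log2 CPM of at least 2, the most similar to Fgf5 was Efnb2 (0.966), to Otx2 Polr3b (0.959), to Pou3f1 Pim2 (0.975) and to Lef1 Zfp740 (0.952). The nearest to Zic2 was Cand2 (0.944), to Zic5 Abcc1 (0.852) and to Foxd3 Dapk3 (0.876), and for Sox3, compared with 10716 genes, it was Dnmt3a (0.943). Dnmt3a came second for Pou3f1 (0.958) and Dnmt3b second for Fgf5 (0.964). These values describe points that share libraries, depth and the step from 0 h to 24 h.

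A list of 15 other genes of the formative and primed epiblast, chosen with earlier results known, moved mostly the same way over the 24 h. In wt cells 12 were called higher and 1 lower, in KO#1 12 higher and 0 lower, and in libraries labelled KO#2 13 higher and 0 lower, while 26, 20.1 and 12.7% of all genes tested were called higher and 24.7, 20.6 and 13.3% lower. The median log2 fold change of the list was 2.88, 2.05 and 2.54, in the same order, beside 0.030, 0.0037 and -0.028 over all genes. Fgf15, an FGF gene of the early embryo, had the largest rise in each line, by 5.04 in wt cells (SE 0.70, edgeR adjusted p = 2.36e-05), 5.43 in KO#1 (SE 0.72, edgeR adjusted p = 3.04e-05) and 6.18 in libraries labelled KO#2 (SE 0.66, edgeR adjusted p = 4.78e-06). Its counts at 0 h were near the floor, at 0, 3 and 3 in wt cells, 0, 0 and 5 in KO#1 and 6, 1 and 1 in libraries labelled KO#2, so that these values and its place in the list rest on few counts. The de novo DNA methyltransferase gene Dnmt3a rose by 4.07, 3.18 and 3.95 and Dnmt3b by 3.45, 2.72 and 2.83. Tcf15, a helix-loop-helix factor of cells leaving the naive state, rose by 3.13 in wt cells, by 4.10 in KO#1 and by 2.94 in libraries labelled KO#2. At 24 h Dnmt3a was lower than in wt in KO#1 (-1.62, SE 0.32, edgeR adjusted p = 0.00279), and Tcf15 was lower in libraries labelled KO#2 (-1.50, SE 0.33, edgeR adjusted p = 0.00203). Sall2, a zinc finger gene, was the 1 gene of the list called lower in both KO clones, by -1.64 in KO#1 (edgeR adjusted p = 0.0102) and by -1.0 in libraries labelled KO#2 (edgeR adjusted p = 0.0451). The others were Sox11 in KO#1 (-1.81, edgeR adjusted p = 0.00025) and, for KO#2, Etv4 (-1.27), Cldn6 (-1.25) and Grhl2, the last higher (1.27). Against wt at 24 h 3 of the 15 were thus called in KO#1, all lower, and 5 in libraries labelled KO#2, 4 of them lower and 1 higher, beside 9.86% and 37.3% of all genes tested. The KO#2 values depend on the scaling: with library totals in place of TMM factors, that of the member Sox3 moved from -1.82 to -0.80 and lost its call. The values of Sall2, Tcf15, Etv4 and Cldn6 on that scale are not given here. Nodal, the ligand whose pathway Activin A stimulates, and Etv5 were called in none of the 3 lines over the 24 h.

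**Figure D4:**
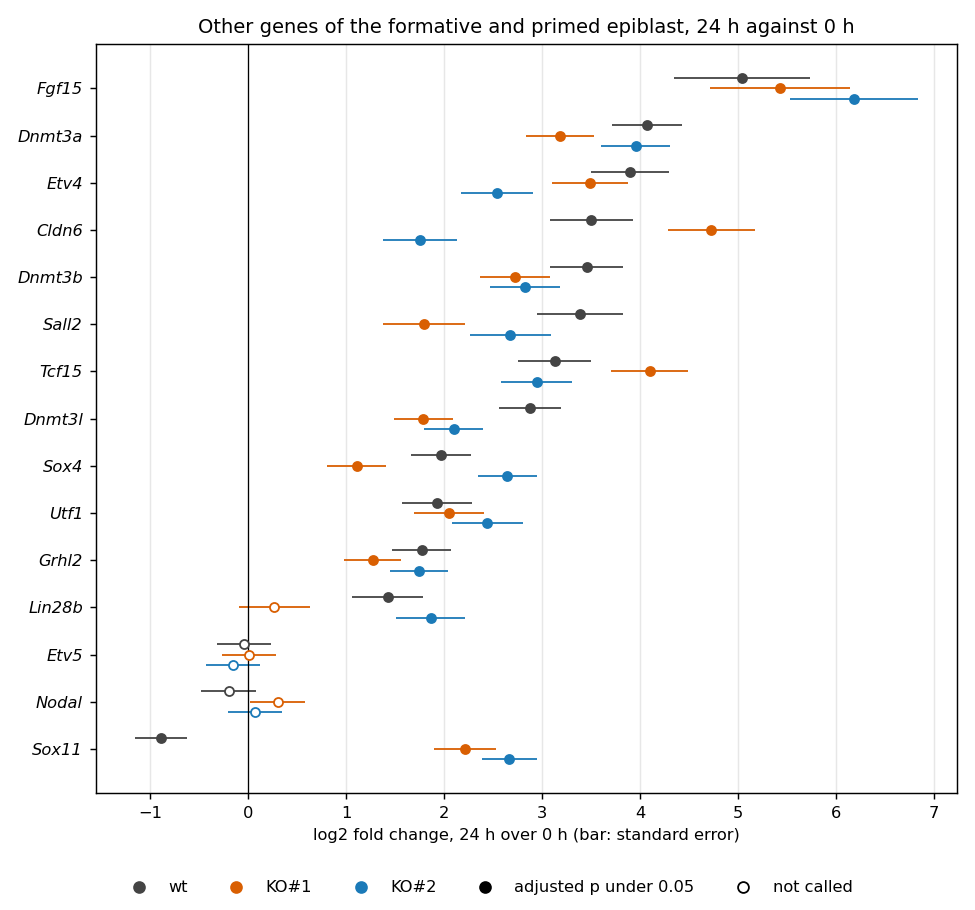
Log2 fold change from 0 h to 24 h of 15 other genes of the formative and primed epiblast in wt, KO#1 and KO#2, with its standard error as a bar (edgeR, 3 libraries per group); filled points passed an adjusted p of 0.05. Fgf15 lies furthest right in each line, at 5.04, 5.43 and 6.18, and Sox11 lies at -0.90 in wt and at 2.21 and 2.67 in KO#1 and KO#2.

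Sox11 stood apart from the rest of that list and was singled out, like Nodal and Etv5, after its values were seen. Sox11, a SoxC transcription factor gene, was at 79.4, 44.6 and 50.5 CPM in wt cells at 0 h, against 1.96, 2.09 and 1.75 in KO#1 and 3.49, 3.73 and 5.13 in libraries labelled KO#2. The groups were far apart, with log2 fold changes against wt of -4.92 in KO#1 (SE 0.33, edgeR adjusted p = 2.36e-08) and -3.81 in libraries labelled KO#2 (SE 0.30, edgeR adjusted p = 1.51e-07). Over 24 h Sox11 fell in wt cells by 0.90 on the log2 scale, and it rose by 2.21 in KO#1 and by 2.67 in libraries labelled KO#2. Of 12 genes of the naive state, 10 were called lower at 24 h in each of the 3 lines, beside 24.7, 20.6 and 13.3% of all genes in wt, KO#1 and KO#2, and 7 were called higher than in wt at 24 h in each KO clone, beside 6.25% of all genes for KO#1 and 21.3% for KO#2. In the same libraries of 24 h, Pou3f1 and Sox3 were lower than in wt cells in both KO clones, by counts that share the same wt libraries. With library totals, Sox3 lost its call in libraries labelled KO#2 (edgeR adjusted p = 0.131). Lef1 was called lower in KO#1 alone, and Fgf5, Otx2, Zic2, Zic5 and Foxd3 were called in neither clone. How the calls of naive genes depend on the setting is not given here.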

How the data were processed

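RNA-seq was analysed for 18 libraries of Mus musculus iPSCs, grouped by the line and time in the sample titles. The authors deposited counts as whole numbers per gene, without normalization. According to the methods of the study, stranded total RNA libraries were sequenced as paired ends, adapters trimmed, ribosomal sequences removed and reads aligned to GRCm38 with STAR. Salmon, StringTie and DESeq2 are named for what followed. The annotation release and the use of strand are not given in the sources used here.

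Analyses used R 4.3.3, edgeR 4.0.16, DESeq2 1.42.0, Python 3.11.15 and matplotlib 3.10.9. filterByExpr with a minimum count of 10 left 16619 of 45706 genes, all 8 members among them. Library sizes were scaled by TMM, and edgeR's quasi-likelihood test was run in a single model with 1 mean per group, with Benjamini-Hochberg adjustment over all genes tested in each of 11 comparisons and calls at an adjusted p-value under 0.05. The standard error of a log2 fold change was its absolute value over the root of its F statistic, or, for differences between responses, the root of the summed squares of those of both responses. Total counts per library ranged from 3466436 to 23872837. Log2 CPM used a prior count of 2. Of the identifiers, 45143 were found in GENCODE M21, and promoter windows came from RefSeq.

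The named genes are the 8 members, Hmga2, up to 6 called genes with the largest changes per comparison from 15 companions of a fixed list, a further item of which is not reported here, and the 3 genes most correlated with each member, of which the first is given and the second where it is a companion. Sox11 over time, Tcf15 in wt cells, Nodal and Etv5 were named after seeing values. The 12 naive genes and the marker lists are given by counts or sums, and Tcl1, Klf4 and Zfp42 of the naive list were named after seeing values. The neuroectoderm list summed to 30.5 to 195 CPM, the primitive streak list to 2.10 to 18.4 CPM and the primitive endoderm list to 145 to 773 CPM. The members and lists were chosen with earlier results of these data known. Alternatives were DESeq2, RLE factors, library totals alone, no filter, a minimum of 10 counts in all libraries, a fit of just the compared groups, the replicate block and each library left out. A fit of protein-coding genes only was chosen after seeing the data. The steps were tested on simulated data.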

Additional observations from a re-analysis of the deposited data

Results flagged for a closer look

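With the filter on low counts, a 24 h change unlike the one in wt cells was called for no member. Among the 15 other genes of the formative and primed epiblast, Sox11 was called, by the test of the difference between the responses. The response of Sox11 exceeded that of wt by 3.11 on the log2 scale in KO#1 (SE 0.41, edgeR adjusted p = 0.00359) and by 3.56 in libraries labelled KO#2 (SE 0.39, edgeR adjusted p = 0.000389). With a library left out it lay between 2.85 and 3.27 in KO#1 and between 3.30 and 3.79 in libraries labelled KO#2, called in 12 of 12 such fits in each. Both comparisons share the wt libraries, and no formal outlier test was run in groups of 3 libraries.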

How the results depend on the processing

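Of 77 member values, 30 were called, and none of these changed sign under any setting. The rises of Fgf5, Otx2, Pou3f1, Sox3 and Lef1 in all 3 lines and the lower Pou3f1 of both KO clones at 24 h were called in every fit that tested them. Among these fits is that of Fgf5 in KO#1 with the 0 h group at 0 counts. With a library left out, 9 of the 30 lost their call in at least 1 fit. The number of members called with a library left out ranged from 0 to 2 for KO#1 against wt at 0 h, from 2 to 5 for the libraries labelled KO#2 against wt at 0 h, and from 0 to 2 between the KO clones at 24 h. In another setting 7 of the 30 lost their call, and 17 values not called were called. Depth limits Fgf5 and Sox3 at 0 h most. KO#2 stands here for the libraries labelled so. The causes of the shifts below were not tested, except where the construction is named.

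At least 10 counts in every library kept only 4 members (Lef1, Zic2, Zic5 and Foxd3), so that counts fell to 1 in wt over 24 h, 1 in KO#1 over 24 h, 2 in libraries labelled KO#2 over 24 h, 0 and 2 for KO#1 and KO#2 against wt at 0 h, and 1 and 0 at 24 h. Only the groups compared gave 0 for KO#1 against wt at 0 h, with 6 members tested. Library totals alone gave 7 members in KO#1 over 24 h, with Zic2 and Zic5 as lower, 1 and 2 members against wt at 0 h and 6 between the KO clones at 24 h. No filter gave 5 for KO#1 at 0 h, 3 for the response of KO#2 and 1 between the KO clones at 0 h, as did DESeq2, RLE factors and the replicate block (Pou3f1 in each).

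Values without a call changed sign as follows. With library totals alone, KO#2 against wt at 24 h became 0.70 for Fgf5, 0.28 for Foxd3, 1.01 for Hmga2, 0.57 for Lef1 and 0.99 for Zic2. On the same scale the response of KO#1 became -0.066 for Fgf5 and -0.12 for Sox3, Foxd3 in KO#1 at 0 h 0.031, Zic5 in KO#2 at 0 h 0.023, Zic5 in wt over 24 h -0.52, and Pou3f1 between the KO clones at 24 h 1.01, the last now called. With at least 10 counts, Foxd3 in KO#2 over 24 h became -0.055, and Hmga2 and Zic2 in KO#2 at 24 h 0.11 and 0.13. With no filter, Zic2 in KO#2 at 24 h became 0.0098 and Pou3f1 between the KO clones 0.0091. With protein-coding genes only, Hmga2 and Zic2 in KO#2 at 24 h became 0.034 and 0.054, and Pou3f1 between the KO clones 0.046. The response of Fgf5 in KO#1 became -0.017 with DESeq2 and -0.0052 with the replicate block.

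With a library left out, the ranges that crossed 0 were, over 24 h, -0.00097 to 0.18 for Zic5 and -0.48 to 0.46 for Foxd3 in wt, -0.58 to 0.057 for Foxd3 in KO#1, and -0.073 to 0.96 for Zic2 and -0.29 to 0.36 for Foxd3 in KO#2. Foxd3 in KO#1 ranged from -0.52 to 0.45 at 0 h and from -0.59 to 0.024 at 24 h. In KO#2 against wt at 24 h they were -0.55 to 0.24 for Fgf5, -0.75 to 0.30 for Zic2, -0.021 to 0.74 for Zic5 and -0.82 to 0.27 for Hmga2. Responses ranged from -1.01 to 4.31 (Fgf5, the upper end with KO#1 at 0 counts at 0 h), -0.42 to 0.38 (Sox3), -0.017 to 0.70 (Zic2) and -0.73 to 0.22 (Foxd3) in KO#1, and from -0.59 to 0.79 (Fgf5) and -0.39 to 0.56 (Foxd3) in KO#2. Between the KO clones at 24 h they were -0.44 to 0.33 for Pou3f1 and -0.021 to 1.04 for Zic2.

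Library totals alone moved the share of called genes that were higher from 51.3 to 21.4% (wt) and from 49.4 to 11.4% (KO#1) over 24 h, from 56.4 to 90.3% at 0 h and 57.1 to 94.8% at 24 h in KO#2 against wt, and from 59.8 to 71.3% in KO#1 against wt at 0 h. Between the KO clones it moved from 57.3 to 90.6% at 0 h and from 54.5 to 95.5% at 24 h, and for the responses from 64.6 to 50% (KO#1) and from 64.8 to 94.4% (KO#2). For the response of KO#1 it was 85.5% with only the groups compared, and for that of KO#2 53.6% with no filter, 53.5% with the block and 80.0% with protein-coding genes only.

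Over all genes, at least 10 counts lowered the calls from 4324 to 2614 in KO#2 over 24 h, from 1108 to 473 and from 6329 to 3813 in KO#1 and KO#2 against wt at 0 h, from 1638 to 824 and from 6197 to 4100 at 24 h, and from 4393 to 2900 between the KO clones at 0 h. Only the groups compared gave 441 for KO#1 at 0 h. Library totals alone gave 1088 and 10208 at 24 h and 9986 (from 5878) between the KO clones. Calls for the response of KO#1 went from 65 to 4 with library totals, 307 with no filter, 276 with DESeq2 and 6 to 39 with a library left out. Those of KO#2 went from 244 to 801, 1717, 1409 and 51 to 563, in the same order, 447 with the block and 469 with protein-coding genes only. With a library left out, KO#1 against wt fell to 598 calls at 0 h (without wt library 3) and to 1028 and 1029 at 24 h (without wt library 2 or 1), KO#2 over 24 h to 2534 and 2672 (without library 3 of 24 h or library 1 of 0 h), and the difference between the KO clones at 0 h to 2601 (without KO#2 library 1).

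The replicate numbers were not taken as pairs. Deviations from the group means correlated by 0.0531 on average for equal numbers (range -0.255 to 0.587) and -0.0266 for unequal ones, and 11 of 18 libraries were closest to their own number, a hint from the data and not from the design. The block on replicate number changed no other member's call.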
